A study of Mus musculus with 4 samples.

Results

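The genes described here set where a lymphocyte goes inside a lymphoid organ and whether it leaves: the sphingosine 1-phosphate (S1P) receptors S1pr1, S1pr2 and S1pr4, the transcription factor Klf2, the oxysterol receptor Gpr183, the activation antigen Cd69, the homing receptor Gpr15 and the lysophospholipid-responsive receptor P2ry10. They were chosen by name, with earlier results of these data known. Each was measured by 1 probe to which the platform annotation gives that gene symbol alone, so 8 genes of 22180 with such a probe are described. All 8 had a mean over the arrays above the median of all genes, 5.91 on the log2 scale, which served as the expression limit and left 11090 genes.

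S1P is abundant in blood and lymph and scarce in lymphoid tissue, and T cells follow this gradient out through S1PR1. Klf2 switches S1pr1 on in resting T cells, CD69 on the surface of activated cells pulls S1PR1 inside, and S1PR2 does the reverse of S1PR1 by holding cells inside germinal centres. GPR183, also called EBI2, draws cells towards oxysterols at the outer follicle and at the border of the T and B cell zones.

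Regulatory CD4 T cells were sorted from mice on day 7 of the response to NP-OVA, a hapten coupled to ovalbumin, given in CFA (complete Freund's adjuvant), and their RNA was hybridized to Affymetrix Mouse Gene 2.0 ST arrays. The control mice carried FoxP3YFP-Cre, in which Foxp3 drives both a yellow fluorescent reporter and Cre, and the knockout mice carried the same allele together with Prdm1fl/fl, floxed alleles of the gene for the repressor Blimp-1. Both genotypes thus expressed Cre, and recombination was directed to cells that express Foxp3. Follicular regulatory cells (TFR) were PD1+CXCR5+YFP+ CD4+ cells and the other regulatory cells (non-TFR) were CXCR5-YFP+ CD4+ cells. The sources used here do not give the ages of the mice or how many were pooled for an array. Each of the 4 groups was 1 array, so no difference has a replicate check or a p-value, and precision is limited by the number of arrays. Values are log2 expression values, a difference of 1 is 2-fold, and levels of different genes were not set against each other, because probes differ in how brightly they report.

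Prdm1, the targeted gene, had a level of 7.80 in control non-TFR, 7.59 in knockout non-TFR, 8.21 in control TFR and 7.32 in knockout TFR cells. It was thus 1.85-fold lower in the knockout among TFR cells and 1.15-fold lower among non-TFR cells, and the sources used here do not say whether the probe covers the deleted part. The T cell genes Foxp3 and Cd3e were bright on every array, with Foxp3 between 11.87 and 12.45. Of 12 measured B cell markers 7 lay below the limit on all 4 arrays, among them Ms4a1 (CD20) at 3.98 to 4.12 and Cd79a at 5.37 to 5.69. Above it on every array were Cd79b at 8.08 to 8.42, Bank1 at 6.06 to 6.95 and Cd22, which ran from 5.99 in control non-TFR to 9.27 in knockout TFR cells. Pax5 at 6.10 and Blk at 6.11 lay above it on the knockout TFR array alone. The mean of the B cell list was 5.35 to 5.75, that of 6 germinal centre B cell markers 5.31 to 5.41 and that of 13 myeloid and dendritic cell markers 5.61 to 5.75. Of the germinal centre markers, Basp1 at 6.63 to 8.045 and Neil1 at 7.21 to 7.38 lay above the limit on every array. So did Cst3 at 10.77 to 10.93 and Cd209a at 8.05 to 8.54 among the myeloid and dendritic cell markers. Of 8 CD8 T and NK cell markers 4 lay below the limit on all arrays. Nkg7 at 9.12 to 10.42, Cd8b1 at 8.73 to 9.42 and Eomes at 6.36 to 7.09 lay above it on every array. Cell division genes went with the population and, outside the follicle, with the genotype: the mean of 14 genes was 7.04 in control non-TFR, 7.87 in knockout non-TFR, 9.62 in control TFR and 9.68 in knockout TFR cells. Naive and resting T cell markers went the other way, the mean of 9 genes being 9.65, 9.22, 8.31 and 7.81 in the same order. The part of these marker shifts in the differences below was not tested. In sorted bulk samples, fewer cells with a transcript and less of it per cell cannot be told apart.

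**Figure D1:**
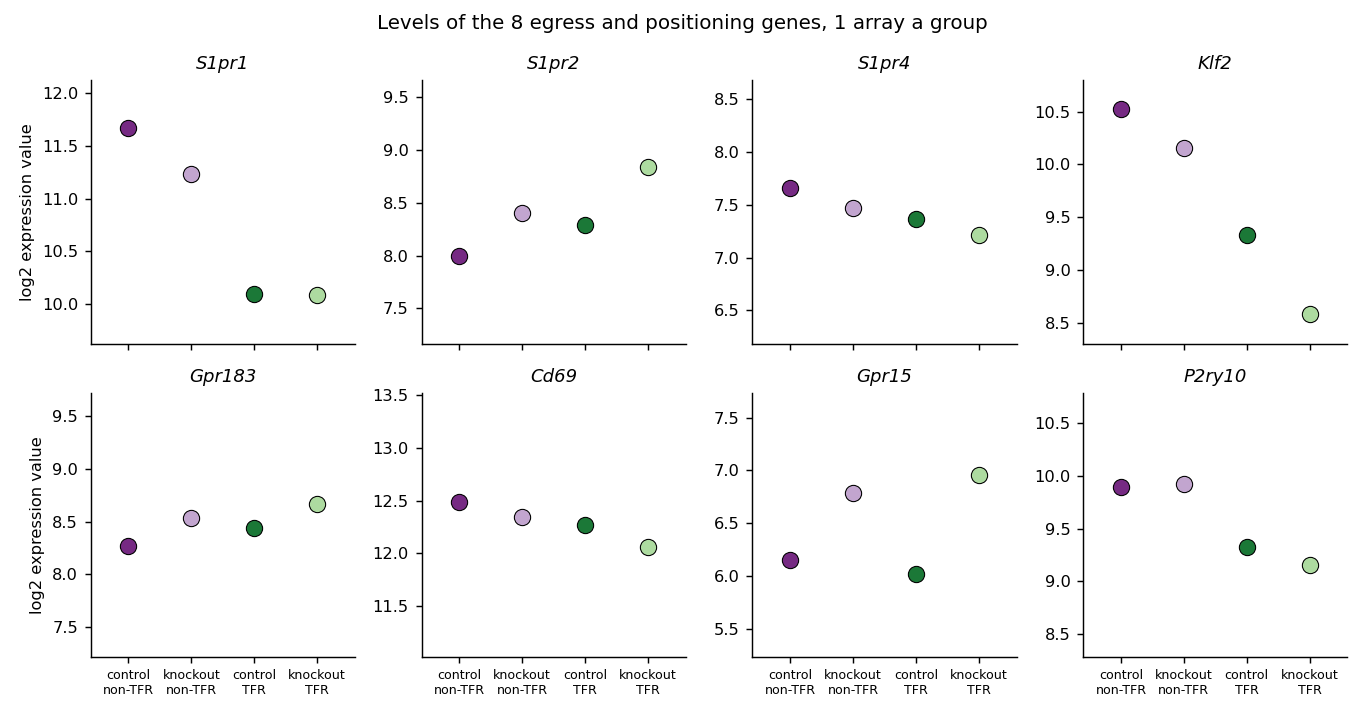
Log2 expression value (vertical axis) of each of the 8 genes on the 4 arrays (horizontal axis); each point is 1 array, and every panel spans the same log2 distance around its own midpoint. S1pr1, Klf2, P2ry10, S1pr4 and Cd69 were lower on both TFR arrays than on both non-TFR arrays, with the widest gaps for S1pr1 and Klf2. Gpr15, S1pr2 and Gpr183 were higher on both knockout arrays than on both control arrays, with the widest gap for Gpr15.

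S1pr1, the receptor for exit from lymphoid organs, had a level of 11.67 in control non-TFR, 11.23 in knockout non-TFR, 10.10 in control TFR and 10.08 in knockout TFR cells. Both TFR arrays lay below both non-TFR arrays, with a gap of 1.14 between the nearest values of the populations and 0.01 between the TFR arrays. TFR cells had 2.97-fold less S1pr1 signal than non-TFR cells in control mice (-1.57), and 23 of the 11090 genes above the limit, S1pr1 included, were as low or lower in that comparison. In knockout mice the difference was -1.15 (2.22-fold lower), a value reached by 100 genes. The genotype difference was -0.01 in TFR and -0.43 in non-TFR cells, where 2.6% of genes were as low or lower.

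Klf2, the transcription factor that sustains S1pr1 in resting T cells, was ordered the same way, with 10.52 in control non-TFR, 10.16 in knockout non-TFR, 9.34 in control TFR and 8.58 in knockout TFR cells. Every step down this order was at least 0.37, and the knockout TFR array was the lowest by 0.76. TFR cells were 2.28-fold lower than non-TFR cells in control mice (-1.19) and 2.98-fold lower in knockout mice (-1.58), values that 79 and 28 genes reached. Between genotypes Klf2 was 1.69-fold lower in knockout than in control TFR cells (-0.76, reached by 86 genes, 0.775%) and 1.29-fold lower in knockout than in control non-TFR cells (-0.37, 4.01% of genes). S1pr1 and Klf2 thus shared the population difference. Among TFR cells, however, Klf2 differed between genotypes by -0.76 and S1pr1 by only -0.01, values 0.74 apart.

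S1pr1 and Klf2 were the 2 of 8 genes at least 2-fold apart between the populations, both lower in TFR cells, in control and in knockout mice alike. Of all genes above the limit 5.49% were at least 2-fold apart in control mice, 1.36% lower, and 4.4% in knockout mice, 1.37% lower. The median difference of the 8 genes was -0.25 in control and -0.27 in knockout mice, beside 0.02 and 0.01 over all genes above the limit. The population comparisons of the 2 genotypes used different arrays. Of the 8 genes 5 were lower in TFR cells in both genotypes (S1pr1, S1pr4, Klf2, Cd69 and P2ry10), 2 were higher in both (S1pr2 and Gpr183) and Gpr15 changed sign, while over all genes above the limit 36.1% were lower in both and 40.3% higher in both.

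**Figure D2:**
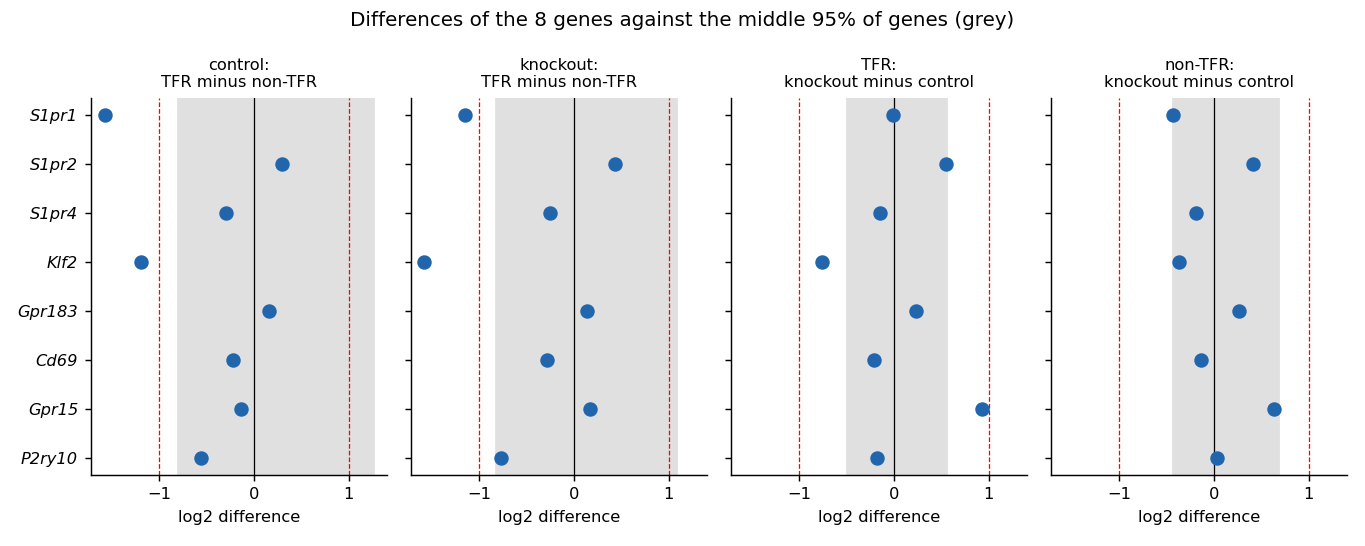
Log2 difference (horizontal axis) of the 8 genes in each of the 4 comparisons; the grey band is the middle 95% of the 11090 genes above the expression limit and the dashed lines mark 2-fold. In the population comparisons S1pr1 and Klf2 lay below the band, and in the TFR genotype comparison Klf2 lay below it and Gpr15 above it.

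S1pr2, the receptor that confines cells to germinal centres, had population differences opposite in sign to those of S1pr1, though its order of groups was not the reverse. Its level was 7.99 in control non-TFR, 8.29 in control TFR, 8.41 in knockout non-TFR and 8.84 in knockout TFR cells. The knockout array was the higher one in each population and the TFR array the higher one in each genotype. TFR exceeded non-TFR cells by 0.30 in control and 0.43 in knockout mice, values that 23.7% and 14.1% of genes reached. Knockout exceeded control by 0.54 in TFR cells (1.46-fold, reached by 2.71% of genes) and by 0.41 in non-TFR cells (1.33-fold, 8.25%). All 4 differences were short of 2-fold, yet the balance between the S1P receptors shifted by more: relative to S1pr2, S1pr1 was 3.65-fold lower in TFR cells of control mice and 2.99-fold lower in knockout mice. A constant factor for a whole array cannot alter such a ratio within the array, but quantile normalization, used here, can.

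S1pr4, a further S1P receptor of lymphocytes, differed little, with 7.65 in control non-TFR, 7.47 in knockout non-TFR, 7.37 in control TFR and 7.21 in knockout TFR cells. It had the order of S1pr1 and Klf2 with a full range of 0.44, and its population differences of -0.29 and -0.25 were reached by 19.5% and 22.3% of genes. Of the other receptors of the family, S1pr3 lay below the limit on every array (4.35 to 4.83), and S1pr5, known from natural killer cells, lay between 6.34 and 6.76 with population differences of -0.09 and -0.25, the first being 0.01 with the values as deposited.

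Sequence upstream of the transcription start was available from RefSeq (GRCm38.p6) for 6 of the 8 genes: Klf2, S1pr2, S1pr4, Gpr183, Gpr15 and P2ry10. The 250 bases before the start are shown for Klf2 (chr8:72318812-72319061, plus strand), at least 2-fold lower in TFR cells, for S1pr2 (chr9:20976794-20977043, minus strand), which was higher there, and for Gpr15 (chr16:58718873-58719122, minus strand), which had the highest genotype difference. They are written 5′ to 3′ with capitals marking matches on either strand to CACCC, a core of sites bound by Klf factors.
Klf2: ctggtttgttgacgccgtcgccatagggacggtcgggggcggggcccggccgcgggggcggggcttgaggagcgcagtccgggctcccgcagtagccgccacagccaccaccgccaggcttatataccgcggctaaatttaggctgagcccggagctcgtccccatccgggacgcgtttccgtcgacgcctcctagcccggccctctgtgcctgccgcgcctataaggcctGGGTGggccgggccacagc
S1pr2: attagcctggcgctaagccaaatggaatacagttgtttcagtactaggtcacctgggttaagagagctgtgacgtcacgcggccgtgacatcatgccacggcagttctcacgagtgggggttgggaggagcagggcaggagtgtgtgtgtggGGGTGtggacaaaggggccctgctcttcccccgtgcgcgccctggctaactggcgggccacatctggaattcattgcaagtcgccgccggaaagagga
Gpr15: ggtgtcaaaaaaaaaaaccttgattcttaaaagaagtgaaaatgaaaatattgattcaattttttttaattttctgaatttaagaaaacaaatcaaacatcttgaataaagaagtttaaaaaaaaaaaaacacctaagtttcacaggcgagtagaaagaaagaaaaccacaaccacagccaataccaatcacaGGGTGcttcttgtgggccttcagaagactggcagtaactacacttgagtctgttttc
Each of these windows held 1 match on the reverse strand, ending 15 bases before the start in Klf2, 94 in S1pr2 and 53 in Gpr15. S1pr4 held 1 as well and Gpr183 and P2ry10 none, so 4 of 6 genes had a match. Counted by window this was 4 of 7, since P2ry10 had 2, beside 52.0% of 32851 promoter windows of the same length. GAAAGT, the core of the site bound by Blimp-1, was found in 1 of 6 genes, in 1 of 2 windows of P2ry10, and in 12.3% of all windows. TAAACA, the core of the FOXO site, was found in Gpr183 alone among the 6 genes and in 3952 of the 32851 windows. None of the 3 motifs contains another, and a match describes these letters and not a bound site.

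Gpr183, the oxysterol receptor, had the same order of groups as S1pr2 in a narrower range, with 8.27 in control non-TFR, 8.44 in control TFR, 8.53 in knockout non-TFR and 8.67 in knockout TFR cells. The highest and lowest arrays were 0.40 apart. Knockout exceeded control by 0.23 in TFR and 0.26 in non-TFR cells, and 16.8% and 17.1% of genes reached these values. TFR exceeded non-TFR cells by 0.16 and 0.14 in control and knockout mice. Of the 4 enzymes that make or break down its oxysterol ligands, Ch25h, Cyp7b1 and Cyp27a1 lay below the limit on all arrays, at 5.60 or less. Hsd3b7, which degrades the ligand, was at 5.66 in control non-TFR, 5.78 in knockout non-TFR, 6.30 in control TFR and 6.51 in knockout TFR cells, so both non-TFR values were below the limit.

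Cd69, the antigen that takes S1PR1 off the cell surface, was bright on every array, with 12.48 in control non-TFR, 12.34 in knockout non-TFR, 12.27 in control TFR and 12.06 in knockout TFR cells. It had the order of S1pr1 with a range of 0.42. Its population differences were -0.21 and -0.28 and its genotype differences -0.21 in TFR and -0.14 in non-TFR cells, each reached by at least 14.6% of genes. Cd69 signal, like S1pr1 signal, was thus lower in TFR cells. The arrays measure RNA and not S1PR1 at the cell surface, and a link between the genes was not tested.

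P2ry10 was lower in TFR cells, with 9.89 in control non-TFR, 9.92 in knockout non-TFR, 9.33 in control TFR and 9.15 in knockout TFR cells. Both TFR arrays lay below both non-TFR arrays, by 0.56 between the nearest values. The population difference was -0.56 (1.47-fold lower) in control and -0.77 (1.70-fold lower) in knockout mice, reached by 6.42% and 3.0% of genes. The genotypes differed by -0.18 in TFR and 0.03 in non-TFR cells. Its paralogue and neighbour on the X chromosome, P2ry10b, was at 7.23 in control non-TFR, 7.01 in knockout non-TFR, 5.91 in control TFR and 6.00 in knockout TFR cells. P2ry10b was thus 2.50-fold and 2.01-fold lower in TFR cells, with TFR values close to the limit and a knockout difference under 2-fold as deposited (-0.89) and with cyclic loess (-0.99), and signal can be shared between such related genes.

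**Figure D3:**
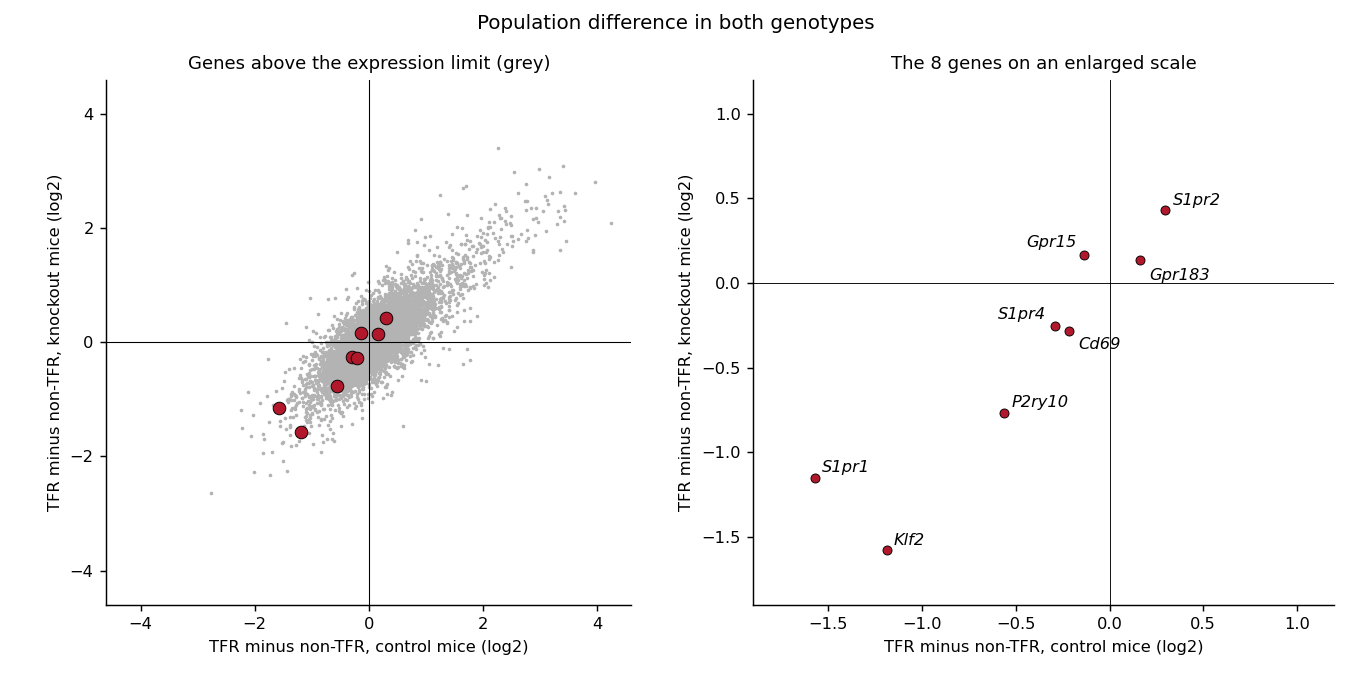
Log2 difference between TFR and non-TFR cells in control mice (horizontal axis) and knockout mice (vertical axis); grey points are the 11090 genes above the expression limit and red points the 8 genes, enlarged on the right. S1pr1, Klf2 and P2ry10 lay lowest on both axes, S1pr2 highest.

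Gpr15, the receptor that directs T cells to the large intestine, differed with genotype more than with population, with 6.02 in control TFR, 6.15 in control non-TFR, 6.78 in knockout non-TFR and 6.95 in knockout TFR cells. Both knockout arrays lay above both control arrays, by 0.63 between the nearest values, and the control values were close to the expression limit, where differences can be compressed. Knockout exceeded control by 0.93 in TFR cells (1.91-fold, reached by 62 genes, 0.559%) and by 0.63 in non-TFR cells (1.55-fold, 3.07%). TFR cells differed from non-TFR cells by -0.13 in control and 0.17 in knockout mice.

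None of the 8 genes was 2-fold apart between genotypes, in TFR cells, where 0.676% of genes were, or in non-TFR cells, where 0.902% were. With no replicate there is no unadjusted p to set beside these counts. The median genotype difference of the 8 genes was -0.08 in TFR and -0.06 in non-TFR cells, beside 0.02 and 0.03 over all genes above the limit. S1pr2, Gpr183 and Gpr15 were higher in the knockout in both populations, S1pr1, S1pr4, Klf2 and Cd69 were lower in both, and P2ry10 changed sign. Over all genes above the limit 34.5% were higher in both and 2767 of the 11090 were lower in both, and the 2 genotype comparisons used different arrays. The genotype difference in TFR cells minus that in non-TFR cells ran from -0.39 for Klf2 to 0.42 for S1pr1, within the middle 95% of genes (-0.70 to 0.58). This contrast was not tested, for want of replicates.

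**Figure D4:**
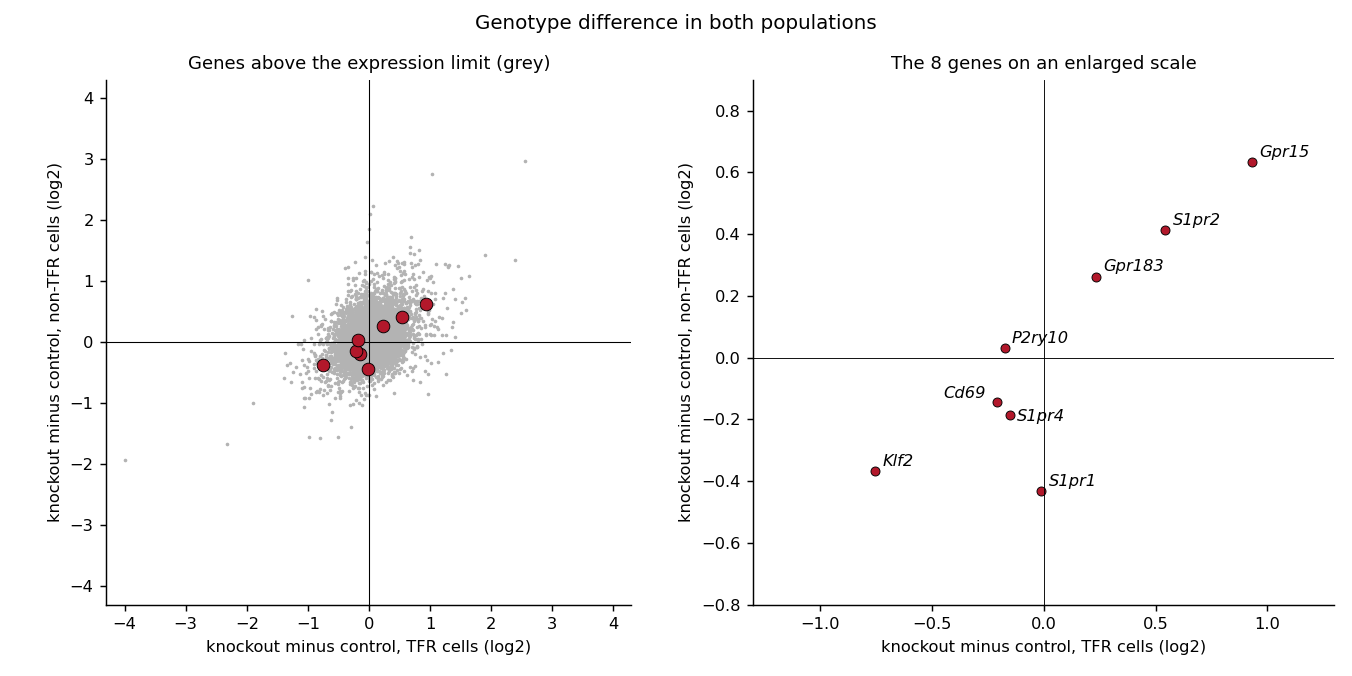
Log2 difference between knockout and control mice in TFR cells (horizontal axis) and non-TFR cells (vertical axis); grey points are the 11090 genes above the expression limit and red points the 8 genes, enlarged on the right. Gpr15, S1pr2 and Gpr183 lay above 0 on both axes, Klf2 lay lowest in TFR cells and S1pr1 lowest in non-TFR cells.

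Genes around Klf2 were followed through 2 lists. These lists and the later ones were drawn up with earlier results of these data known. Their counts thus describe these samples and are no independent support. Of 12 genes linked to Klf2 or to recirculating T cells 11 were measured, S1pr1 and S1pr4 among them, and all 11 were above the limit. All 11 were lower in TFR than in non-TFR cells in both genotypes, whereas 36.1% of all genes above the limit were. In control mice 3 of them and in knockout mice 4 were at least 2-fold lower, beside 1.36% and 1.37% of all genes. The list medians were -0.53 and -0.51, beside 0.02 and 0.01 over all genes above the limit. With the values as deposited, 2 of the 11, S1pr5 and the cytoskeletal gene Vim, were higher in TFR cells of control mice. Cd55, a complement regulator, was at 8.22 in control non-TFR, 7.70 in knockout non-TFR, 6.66 in control TFR and 6.32 in knockout TFR cells, with population differences of -1.56 and -1.38. The differences of Plac8 were -1.17 in control and -0.98 in knockout mice, the latter from a knockout TFR value below the limit. Ccr7, the receptor for the T cell zone, was at 10.59, 10.21, 9.86 and 8.52 in the same order of groups, so its difference from non-TFR cells was -0.73 in control and -1.69 in knockout mice. For Il7r, the interleukin-7 receptor, the differences were -0.50 and -1.21. Ccr7 and Il7r are also markers of naive and resting T cells. Between genotypes 10 of the 11 were lower in knockout TFR cells (median -0.22) and 8 of the 11 in knockout non-TFR cells (median -0.24), beside 46.1% and 44.2% of all genes. Ccr7 was the one gene of the list 2-fold apart between genotypes, with a difference of -1.34 in TFR cells and -0.38 in non-TFR cells, and 0.676% of all genes were 2-fold apart in TFR cells.

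The second list held the Klf family and regulators of Klf2, all 16 measured genes of which were above the limit. In TFR cells 13 were lower in control and 14 in knockout mice, Klf2 being one of them, beside 47.5% and 48.4% of all genes above the limit. The list medians were -0.40 and -0.53, and 11 of the 16 were lower in knockout mice with the values as deposited. Foxo1, the factor that drives Klf2 transcription, was at 10.94 in control non-TFR, 10.73 in knockout non-TFR, 10.19 in control TFR and 9.94 in knockout TFR cells, 1.69-fold and 1.74-fold lower in TFR cells. Klf7 differed by -1.21 in control and -0.60 in knockout mice. Tbx21, which encodes the lineage factor T-bet, was among those higher, by 1.06 in control and 0.11 in knockout TFR cells, with a control difference of 0.97, under 2-fold, when named probes alone were normalized. Between genotypes 14 of the 16 were lower in the knockout, in TFR cells (median -0.22) and in non-TFR cells (median -0.27), beside 46.1% and 44.2% of all genes. None of the 16 was 2-fold apart between genotypes, where 0.676% of all genes were in TFR and 0.902% in non-TFR cells.

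**Figure D5:**
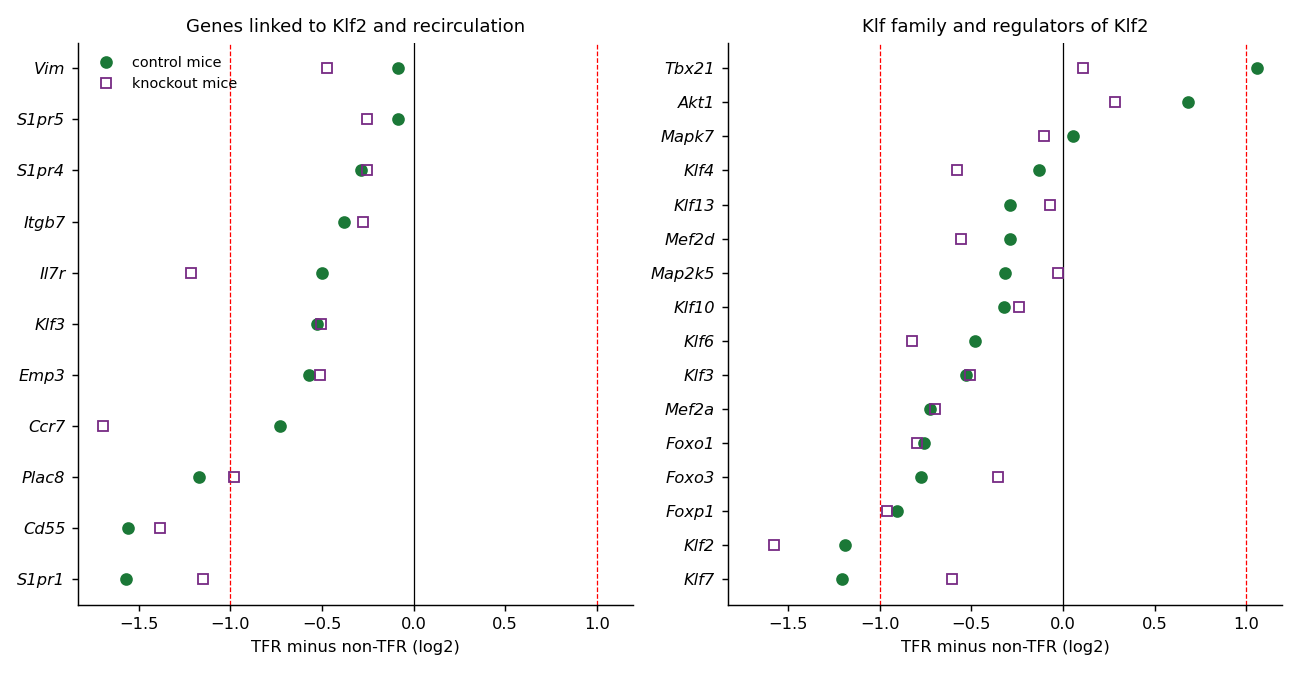
Log2 difference between TFR and non-TFR cells (horizontal axis) in control mice (filled circles) and knockout mice (open squares) for genes linked to Klf2 (left) and for the Klf family and its regulators (right); dashed lines mark 2-fold. All 11 genes on the left lay below 0 in both genotypes (S1pr5 and Vim above 0 in control mice with the values as deposited), and Tbx21 and Akt1 on the right lay above 0 in both.

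The signalling and metabolic partners of the receptors formed another pair of lists, each with 1 gene 2-fold apart in control mice and 0 in knockout mice, where 5.49% and 4.4% of all genes were. Of 23 genes above the limit that couple these receptors to the cytoskeleton 10 were higher and 13 lower in TFR cells in each genotype (over all genes 47.5% were lower in control and 48.4% in knockout mice), and 12 higher and 11 lower in each with the values as deposited. Gna13, the G protein through which S1PR2 stops migration, was 0.14 and 0.31 higher, and Arhgef1, the exchange factor it activates, differed by -0.06 and -0.34, the first being 0.04 with the values as deposited. Gnaq was the one gene of this list at least 2-fold apart, with 7.52 in control non-TFR, 8.30 in knockout non-TFR, 8.86 in control TFR and 8.76 in knockout TFR cells. Its difference was 1.34 in control and 0.45 in knockout mice. Of 12 genes above the limit for S1P synthesis, breakdown and transport, Plpp1, a lipid phosphatase, was the one 2-fold apart, 1.10 higher in control and 0.37 higher in knockout TFR cells. Between genotypes no gene of either list was 2-fold apart, and the shares of all genes given above are under 1%.

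Among 15 further receptors of lymphocyte positioning above the limit, a list that holds Gpr183, Gpr15, P2ry10 and P2ry10b, 7 were higher and 8 lower in TFR cells of control mice, and 3 higher and 12 lower in knockout mice (4 and 11 with the values as deposited). Over all genes above the limit 52.4% were higher and 47.5% lower in control mice, and 51.6% and 48.4% in knockout mice. Gpr34, a lysophosphatidylserine receptor, was at 6.91 in control non-TFR, 6.70 in knockout non-TFR, 6.38 in control TFR and 5.49 in knockout TFR cells, the last below the limit. Of 11 homing and retention genes, Cd69 among them, 6 were higher and 5 lower in control TFR cells and 5 higher and 6 lower in knockout TFR cells, near these shares. Ccr7, given above, was the one homing gene 2-fold apart between genotypes. Cxcr5, 1.46 and 1.49 higher, was used to sort the populations and is no finding between them.

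The genes whose pattern over the 4 arrays was most like that of S1pr1 and Klf2 were found by the root mean square distance between values centred on each gene's mean. The search covered 10134 of the 11090 genes above the limit, since symbols of predicted genes, unnamed clones, small RNAs, pseudogenes, olfactory receptors and antigen receptor segments were left out by their spelling. Nearest to S1pr1 were the T cell surface glycoprotein gene Cd7 (distance 0.034 on the log2 scale), Basp1 (0.069) and the cytochrome gene Cyp2d22 (0.072). Basp1 is also one of the germinal centre B cell markers given above. Cd7 was at 11.44 in control non-TFR, 11.02 in knockout non-TFR, 9.79 in control TFR and 9.84 in knockout TFR cells, so it too was level between the TFR arrays. Nearest to Klf2 were Pik3r5, a regulatory subunit of phosphoinositide 3-kinase gamma (0.047), the sialyltransferase gene St8sia6 (0.053) and Rab3ip (0.098). Pik3r5 was at 8.80, 8.41, 7.67 and 6.95 in the same order of groups and, like Klf2, was lowest in knockout TFR cells. Likeness over 4 arrays is a description of these samples.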

How the data were processed

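Total RNA of sorted cells was hybridized to 4 Affymetrix Mouse Gene 2.0 ST arrays, 1 a group, each grouped by its title. The deposited table holds log2 values made by the authors, a scale inferred from the values (2.23 to 13.8). The submitters' processing notes name MAS5. Background correction, summarization and genome build are not given there or elsewhere in the sources used here. Deposited medians spanned 0.10, so all 41345 probes were quantile normalized with limma 3.58.1 in R 4.3.3. As deposited, the median of all genes was 0.11 higher in control and 0.12 higher in knockout TFR than non-TFR cells. Of the probes, 23521 had 1 gene symbol; the brightest probe stood for a gene. Differences are between pairs of arrays, counted from 2-fold, without tests. The counting was tested on simulated data with a noise level set in advance. That checks the counting itself and not how reliable the counts from these unreplicated arrays are. Members, lists and alternatives were chosen with earlier results of these data known. Named are the 8 members, listed genes at least 2-fold apart with a value above the limit, the S1P receptors, oxysterol enzymes, Prdm1, Gna13, Arhgef1, Foxo1 and P2ry10b, and the 3 genes most like each member at least 2-fold apart. Other genes were named after their values were seen. A planned comparison of protein sequences was not run.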

Additional observations from a re-analysis of the deposited data

Results flagged for a closer look

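Gpr15 and P2ry10 had differences of opposite sign under the same contrast, and in neither case was the opposition itself tested. The TFR minus non-TFR difference of Gpr15 was -0.13 in control and 0.17 in knockout mice. The knockout minus control difference of P2ry10 was -0.18 in TFR and 0.0305 in non-TFR cells. All 4 values lay inside the middle 95% of genes above the limit.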

How the results depend on the processing

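Of the 32 differences of the 8 genes, 0 changed sign and 0 crossed 2-fold under cyclic loess, 75th percentile centring, deposited values, quantile normalization over named probes, the mean of all probes of a gene, or values below the limit raised to it; the farthest move was 0.15 on the log2 scale, as deposited. Each gene had 1 probe and no value below the limit, so the last pair of settings could not alter it. The population difference of S1pr1 ranged from -1.57 to -1.47 in control and -1.21 to -1.06 in knockout mice, and that of Klf2 from -1.20 to -1.07 and -1.62 to -1.44. With a 1.5-fold threshold the count between populations went from 2 to 3 in knockout mice (P2ry10 at 1.70-fold) and was 2 in control mice. The count between genotypes went from 0 to 2 in TFR cells (Klf2 and Gpr15) and from 0 to 1 in non-TFR cells (Gpr15). The share of all genes at 1.5-fold was not counted, so these counts have no background beside them. Over members above the median or the 75th percentile of all genes the 2-fold counts were unchanged. These settings could not alter them: all 8 genes lay above the median, and S1pr1 and Klf2 also above the 75th percentile. The 2-fold counts between genotypes were already 0. No paired analysis was possible because each group is 1 array, so the groups share fewer than 2 replicate numbers; an additive fit of population and genotype over the 4 arrays, which leaves 1 residual degree of freedom, was not run. Detection calls were not used here, and the dim Gpr15 values limit its fold.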
